A study of Mus musculus with 4 samples.

Results

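The zinc finger protein genes Zfp600 to Zfp999 were examined in whole brains of mouse fetuses after acute ethanol exposure. Members were all genes for which the platform annotation gave a probe set with exactly 1 symbol, made of Zfp and a number from 600 to 999 with nothing after the number. This rule found 150 probe sets of 139 genes, of 19938 genes tested in all, and the rule reads only symbols, although the range was picked with earlier results of these data known. A gene with several probe sets (8 of the 139) was represented by the one with the highest mean over the 4 arrays. The ethanol group was 2 pools of fetal brains of C57BL/6J mice, an inbred strain, at embryonic day 16, whose mothers had been given ethanol at 2.5 g per kg on gestational days 14 and 16. The control group was 2 pools from C57BL/6J mothers given saline in the same volume. Each pool held RNA of 3 mice (12 in all) and was hybridised to 1 Affymetrix whole-transcript array, and fetal sex is labelled unknown. The values are the deposited brightness of each probe set on a log2 scale. A brightness depends on the probes as well as on the transcript, so the order of levels below is one of array signals, not of RNA amounts.

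Genes of this kind encode proteins in which small zinc-binding fingers, usually of the C2H2 type, recognise DNA. Many belong to the KRAB zinc finger family, whose members recruit the corepressor Trim28 (KAP1), the histone methyltransferase Setdb1 and heterochromatin proteins to silence retroviral elements and other targets. Such genes lie in clusters that arose by duplication, so neighbours can be nearly identical in sequence. The Zfp number is a name in order of discovery and not a family. Some members, such as the ribosome maturation factor Zfp622, do other work.

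Near-identical copies were visible in the sequences before the genes. RefSeq (GRCm38.p6) gave a promoter for 120 of the 139 genes, matched by gene ID, and the 250 bases before the most upstream start were compared in all 7140 pairs. In 26 pairs, made up of 27 genes, at least 60% of the 250 bases were identical in the best local alignment, and in 18 of these pairs both genes lay on the same chromosome. The closest pair was Zfp758 and Zfp943 of chromosome 17 at 96.8%. On chromosome 4, Zfp600 shared 96.0% with Zfp979 and 90.0% with Zfp980. The stretches of these 5 genes are shown because their copies are the ones the array values below set side by side, and those of Zfp975 and Zfp763 because these genes, with Zfp600, had the clearest differences between the groups. All run 5′ to 3′ toward the gene, and capitals mark CpG dinucleotides.
Zfp600 (chr4:146156577-146156826, + strand): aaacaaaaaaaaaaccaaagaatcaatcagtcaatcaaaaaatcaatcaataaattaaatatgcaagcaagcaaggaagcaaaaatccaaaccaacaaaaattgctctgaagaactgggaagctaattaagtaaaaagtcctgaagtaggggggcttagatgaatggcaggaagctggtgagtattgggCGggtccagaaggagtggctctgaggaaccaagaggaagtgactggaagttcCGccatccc
Zfp979 (chr4:147642509-147642758, - strand): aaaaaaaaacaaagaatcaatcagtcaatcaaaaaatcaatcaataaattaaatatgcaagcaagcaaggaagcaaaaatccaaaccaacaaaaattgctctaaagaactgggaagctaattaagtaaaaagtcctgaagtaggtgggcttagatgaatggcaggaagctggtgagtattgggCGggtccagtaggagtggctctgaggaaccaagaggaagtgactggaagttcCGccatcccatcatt
Zfp980 (chr4:145670447-145670696, + strand): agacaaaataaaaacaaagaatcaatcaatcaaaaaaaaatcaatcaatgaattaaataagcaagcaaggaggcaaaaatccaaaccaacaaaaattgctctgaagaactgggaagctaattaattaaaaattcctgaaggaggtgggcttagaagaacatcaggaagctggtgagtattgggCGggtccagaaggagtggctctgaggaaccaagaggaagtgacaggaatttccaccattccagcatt
Zfp758 (chr17:22361213-22361462, + strand): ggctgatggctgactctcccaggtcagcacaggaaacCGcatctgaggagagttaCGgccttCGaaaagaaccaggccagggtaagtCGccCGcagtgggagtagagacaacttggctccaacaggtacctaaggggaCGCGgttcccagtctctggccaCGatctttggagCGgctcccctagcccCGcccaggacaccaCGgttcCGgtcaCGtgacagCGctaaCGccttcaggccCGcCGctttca
Zfp943 (chr17:21962309-21962558, + strand): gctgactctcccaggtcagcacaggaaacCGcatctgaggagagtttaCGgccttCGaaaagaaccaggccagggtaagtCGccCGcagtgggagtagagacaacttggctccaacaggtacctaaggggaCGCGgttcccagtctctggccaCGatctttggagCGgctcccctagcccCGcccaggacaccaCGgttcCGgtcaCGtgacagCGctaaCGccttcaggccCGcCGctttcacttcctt
Zfp975 (chr7:42692719-42692968, - strand): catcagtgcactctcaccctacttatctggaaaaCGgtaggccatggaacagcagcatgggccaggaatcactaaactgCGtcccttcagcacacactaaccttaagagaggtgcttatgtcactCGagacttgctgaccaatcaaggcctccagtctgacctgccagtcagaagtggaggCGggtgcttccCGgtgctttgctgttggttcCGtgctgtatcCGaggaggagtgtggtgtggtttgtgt
Zfp763 (chr17:33033382-33033631, - strand): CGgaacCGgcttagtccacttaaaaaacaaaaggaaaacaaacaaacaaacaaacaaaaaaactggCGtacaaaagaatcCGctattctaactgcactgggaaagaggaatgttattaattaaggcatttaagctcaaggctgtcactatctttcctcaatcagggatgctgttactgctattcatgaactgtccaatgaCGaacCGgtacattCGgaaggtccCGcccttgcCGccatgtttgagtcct
The shared stretch of the chromosome 4 genes holds 1 or 2 CpG dinucleotides, against 17 in each of Zfp758 and Zfp943. Over the whole 300-base window of the table (250 bases before and 50 after the start) the 120 genes had a median of 12 CpG dinucleotides, against 13 in 17492 protein-coding promoters. Of 4 motifs searched on both strands in the 250 bases, CCAAT was found in 67 of 120 genes (55.8%), against 36.5% of the protein-coding promoters. The Sp1-type motif GGGCGG was found in 53 (44.2%, against 42.7%), CCGGAAG in 15 (12.5%, against 9.15%) and TATAAA in 4 (3.33%, against 12.4%). In the 3 printed genes of chromosome 4 a CCAAT, read on the opposite strand, overlaps a GGGCGG. Duplicated copies are counted separately in these shares, which describe letters and not binding.

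The tissue label was checked with marker genes. All 10 general neuronal markers lay above the upper quartile of gene signals, as the tissue label calls for. The pools differed in other tissue: the median log2 level of 12 skeletal muscle genes came to 7.40 and 8.39 in the ethanol arrays, against 9.88 and 7.28 in the control arrays, with control 1 highest in all 12. The median of 9 mitosis genes came to 9.49 and 9.87 in the ethanol arrays, against 10.2 and 9.70 in the control arrays, again highest in control 1 for all 9. Xist, the RNA of the inactive X chromosome, read 12.0 and 12.8 in the ethanol arrays, against 6.10 and 12.8 in the control arrays, and control 1 stood alone in it too. The Y-linked Eif2s3y split the arrays otherwise, at 11.2 and 10.0 in ethanol 1 and ethanol 2, against 11.6 and 9.98 in control 1 and control 2, and Kdm5d and Uty likewise were higher in ethanol 1 and control 1. By these signals the sex make-up of the pools differed. Xist in control 1 lay below the lower quartile of all gene means (6.46). All 10 pericyte and meningeal genes were below 0, with array medians of 8.996 and 9.683 in ethanol, against 9.911 and 9.003 in control, and control 1 was highest in all 10. Of the marker genes, Ptgds of this list (-0.42 ± 0.10) and the neuronal tubulin Tubb3 (-0.38 ± 0.11) met the relaxed rule described below. Each was the only 1 of 10 in its list, where the share of all genes was 1.02%. Tubb3 did not stand for the neuronal list, in which 6 genes were above 0 and 4 below, with a median log2 difference of 0.01. In pooled tissue, fewer cells of a type and less RNA per cell cannot be told apart. The part of pool composition in the differences below was not tested.

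Most of the genes lay above the dimmest signals of the array. The mean log2 level over 4 arrays ranged from 5.65 to 13.4 with a median of 8.70, against a median of 8.15 over all genes. Only 12 of the 139 (8.63%) lay below the lower quartile of all gene means (6.46), called dim from here on. Among the 178 genes named Zfp1 to Zfp599, 7.3% were dim. Of the 139, 34 (24.5%) lay above the upper quartile (9.83). Brightest was Zfp706, which in mouse embryonic stem cells promotes the exit from self-renewal, at 13.5 and 13.5 in ethanol, against 13.4 and 13.4 in control. It was followed by Zfp664 (mean 12.1), Zfp971 (11.8), Zfp781 (11.4), Zfp825 (11.2) and Zfp948 (11.2). Zfp706, Zfp664 and Zfp825 each have a second, dimmer probe set, with means of 10.9, 8.36 and 9.17. Their place in this order holds only for the brighter set. Zfp616 (5.65), Zfp980 (5.84), Zfp735 (5.96) and Zfp979 (6.00) were dimmest. The genes varied little between arrays: the median range over the 4 arrays was 0.152, against 0.176 for all genes. Zfp697 (range 0.0220), Zfp945 (0.0367) and Zfp688 (0.0440) varied least. The widest were Zfp950 (0.658), Zfp763 (0.585), Zfp600 (0.570), Zfp982 (0.555), Zfp831 (0.511) and Zfp975 (0.489).

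**Figure D1:**
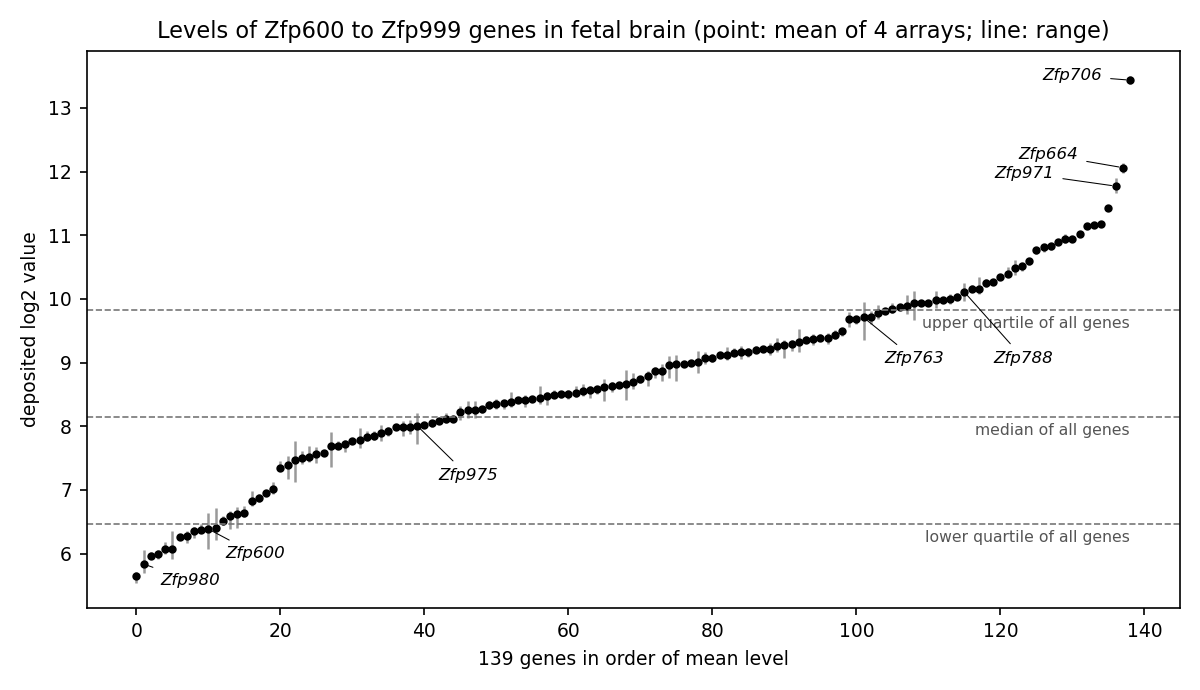
Mean deposited log2 value of each of the 139 genes over 4 arrays (points, y axis) in order of that mean (x axis), with the range of the 4 arrays as a grey line and the quartiles and median of all gene means as dashed lines. The brighter probe set of Zfp706 stands alone at 13.4, and 12 genes, Zfp600 and Zfp980 among them, lie below the lower quartile of 6.46.

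Between ethanol and control, the clearest values were those of Zfp600, Zfp975 and Zfp763, and no gene of the range passed the test over all genes. The fit was limma's moderated linear model over 19938 genes, calling a gene at p under 0.05 after Benjamini-Hochberg adjustment over all of them. It called 0 of the 139, with a smallest adjusted p of 0.980, where the share of all genes was 0.0%. Before adjustment, 8 of 139 (5.76%) had p under 0.05, 6 higher and 2 lower in ethanol, where the share of all genes was 2.94% (1.58% higher and 1.36% lower). Among the 178 genes named Zfp1 to Zfp599 the share was 5.62%. The excess over all genes was absent under some of the alternatives given below. Fitted without sharing variance between genes, the test called 0 of the 139 adjusted and 7 unadjusted (5.04%), where the share of all genes was 3.85%. A relaxed rule, which asks for a fold of 1.2 or more beside the unadjusted p under 0.05, was met by 3 of 139 (2.16%), where the share of all genes was 1.02% and that of Zfp1 to Zfp599 1.12%. These 3 were Zfp600 and Zfp975, higher in ethanol (0.481% of all genes), and Zfp763, lower (0.537% of all genes). The labels do not say that pools came from separate litters, so p-values measure only the spread between these pools.

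Zfp600, on chromosome 4, had log2 levels of 6.57 and 6.64 in ethanol 1 and ethanol 2, against 6.26 and 6.07 in control 1 and control 2. Both ethanol arrays lay above both controls, and the gap between the groups was wider than either pair's spread. The log2 difference was 0.44 ± 0.09 (SE, 2 arrays per group), a fold of 1.35 (limma adjusted p = 0.980). All 4 of its values are near the lower quartile of gene signals, and its mean of 6.39 is dim. With any 1 array left out the difference lay between 0.34 and 0.53, and 0.53 was the value without control 1. Such a fit leaves 1 group with a single array, which is assumed to vary like the other group, so the relaxed rule, still met by Zfp600 in all 4, is a weak check here and below. In the gene table Zfp600 stands between Zfp987 and Zfp992, with Zfp980 next to Zfp987 on the far side.

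The copies near Zfp600 had differences on both sides of 0, and differences between copies were not tested. Zfp980, with 90.0% of the printed stretch identical, stood at 5.82 and 6.06 in ethanol 1 and ethanol 2, against 5.77 and 5.69 in control 1 and control 2. Its groups did not overlap, but ethanol 1 lay close to control 1 and the difference was 0.21 ± 0.10 at a dim level (0.09 without ethanol 2). Zfp979, whose stretch is closest to that of Zfp600, stood at 5.92 and 6.00 in ethanol, against 6.05 and 6.03 in control, lower by a log2 value of -0.08 ± 0.07. Zfp985, with 86.0% shared, had a difference of -0.14 ± 0.10. One further probe set is annotated to Zfp600, Zfp979, Zfp980, Zfp981, Zfp987 and Rex2 together and was therefore outside the rule. It read 7.44 and 7.72 in ethanol, against 7.36 and 7.14 in control, a difference of 0.33 ± 0.13 with no overlap of the groups. Which of its 6 genes gave that signal cannot be told apart.

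Zfp975, on chromosome 7 next to Zfp976, stood at 8.21 and 8.13 in ethanol 1 and ethanol 2, against 7.73 and 7.96 in control 1 and control 2. The groups were apart, with control 1 lowest. The difference was 0.33 ± 0.10 (fold 1.26, limma adjusted p = 0.980). It came to 0.21 without control 1 and 0.29 without ethanol 1, and in neither case, nor without shared variance, was the relaxed rule still met. Of 3 probe sets that name Zfp975 together with other genes, all were higher in ethanol, by 0.06, 0.09 and 0.12, and 1 of the 3 had groups apart. The stretch before Zfp975 shared 61.6% with that of Zfp931 on chromosome 2, whose difference was -0.14 ± 0.15.

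Zfp763, at the end of a chromosome 17 cluster, stood at 9.36 and 9.72 in ethanol 1 and ethanol 2, against 9.95 and 9.80 in control 1 and control 2. Ethanol 1 was far below the other arrays, while ethanol 2 was just below control 2. The difference of -0.33 ± 0.13 (limma adjusted p = 0.980) no longer met the relaxed rule after repeated quantile normalization, among brighter genes, with every probe set on its own, without shared variance or with the replicate block. It was -0.15 without ethanol 1 and -0.26 without control 1, again missing the rule. Control 1, the pool highest in muscle and mitosis genes, was also highest here.

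**Figure D2:**
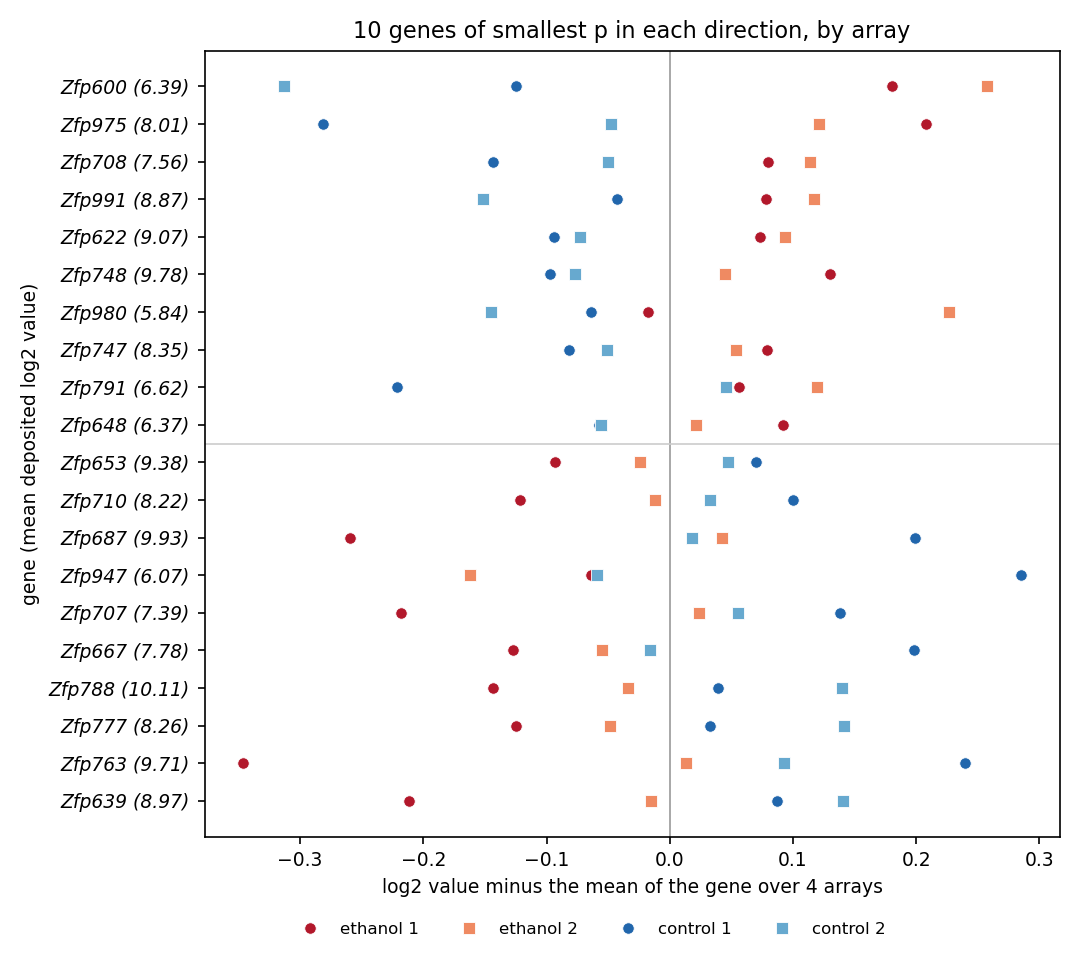
Log2 value of each array minus the mean of the gene over 4 arrays (x axis) for the 10 genes of smallest p in each direction (y axis, mean log2 value in parentheses); red and orange mark ethanol 1 and 2, dark and light blue control 1 and 2. The groups are apart in all rows but Zfp687, where ethanol 2 lies between control 2 and control 1.

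The other genes among the 10 of smallest p on the higher side also had separate groups, which a choice by small p favours. Of all genes, 17.4% were apart and higher. Zfp622, a cytosolic factor of large ribosomal subunit maturation, stood at 9.14 and 9.16 in ethanol, against 8.97 and 8.99 in control, a difference of 0.17 ± 0.07. Zfp708, next to Zfp712 on chromosome 13, stood at 7.64 and 7.68, against 7.42 and 7.51 in control (0.19 ± 0.07). Zfp748, also of chromosome 13, stood at 9.91 and 9.82, against 9.68 and 9.70 in control (0.17 ± 0.07). In these 3 genes each pair of arrays agreed to within 0.1, and ethanol was higher. Zfp991 of chromosome 4 stood at 8.94 and 8.98 in ethanol, against 8.82 and 8.71 in control (0.19 ± 0.07). It is named by 5 probe sets of several genes, whose differences ran from -0.01 to 0.05, well below its own. Zfp747 (0.13 ± 0.07), Zfp791 (0.18 ± 0.10) and Zfp648 (0.11 ± 0.07) complete the 10 higher genes, with Zfp648 dim and Zfp791 barely apart, at 6.67 in ethanol 1, against 6.66 in control 2. The controls of Zfp791 lay further apart than the groups, and its difference was 0.04 without control 1.

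On the lower side, Zfp639, a transcription factor also called Zasc1, stood at 8.75 and 8.95 in ethanol 1 and ethanol 2, against 9.05 and 9.11 in control 1 and control 2. The difference was -0.23 ± 0.09 (limma adjusted p = 0.980), and ethanol 1 was lowest, so that without it the difference was -0.13. Zfp777 (-0.17 ± 0.08) and Zfp788 (-0.18 ± 0.08) likewise had both ethanol arrays below both controls. Zfp788 has a pair of probe sets with identical values on all 4 arrays, which count as 1 measurement. Zfp667, known as Mipu1 in the rat, where it is induced by ischaemia and reperfusion, was lower by a log2 value of -0.18 ± 0.09. Zfp707 (-0.19 ± 0.10), Zfp710 (-0.13 ± 0.08) and Zfp653 (-0.12 ± 0.07) were also apart, and Zfp947 (-0.23 ± 0.12) was apart at a dim level. Zfp687, whose human counterpart works with the chromatin reader ZMYND8, stood at 9.67 and 9.97 in ethanol, against 10.1 and 9.95 in control, with overlapping groups (-0.22 ± 0.12). Its arrays ran in the order of the mitosis medians, lowest in ethanol 1 and highest in control 1, and so did those of Zfp950 (-0.26 ± 0.18, groups overlapping). The order was not particular to these genes. Zfp873, Zfp869, Zfp866, Zfp608, Zfp770 and Zfp942 had it too, and Zfp831, Zfp661, Zfp799 and Zfp846 had the reverse order. Several of the differences on the lower side rest on 1 array. Without ethanol 1 the difference came to -0.07 for Zfp707, -0.08 for Zfp710, -0.07 for Zfp687 and -0.05 for Zfp950. Without control 1 it came to -0.07 for Zfp667 and -0.05 for Zfp947. Whether cell composition enters these values was not tested.

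Over all 139, the differences lay around 0. The median log2 difference was -0.007, with 67 genes above 0 and 72 below, against a median of 0.009 over all genes, of which 54.2% were above 0. The quartiles were -0.07 and 0.05, and the extremes -0.33 and 0.44. Groups did not overlap in 50 of 139 genes (36.0%), where the share of all genes was 31.4%. Of these, 22 were higher in ethanol (15.8%, against 17.4% of all genes) and 28 lower (20.1%, against 14.0%). Among the 178 genes named Zfp1 to Zfp599, 42.7% did not overlap, 24.2% higher and 18.5% lower. Over the genes, the difference between the 2 ethanol pools had an SD of 0.146 and that between the 2 control pools 0.119, against 0.168 and 0.217 over all genes. The highest array was ethanol 1 in 46 genes, control 1 in 35, control 2 in 34 and ethanol 2 in 24.

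**Figure D3:**
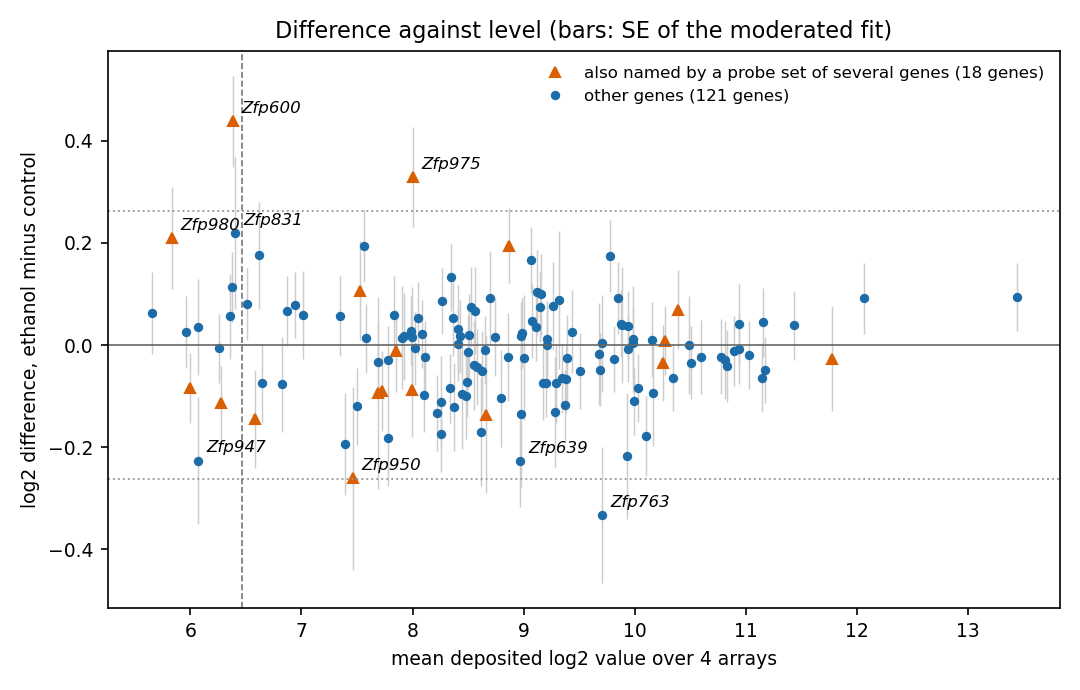
Log2 difference, ethanol minus control (y axis, bars are the SE of the moderated fit), against the mean log2 value over 4 arrays (x axis) for 139 genes; orange triangles mark the 18 genes also named by a probe set of several genes, dotted lines the fold of 1.2 and the dashed line the lower quartile of gene means. Zfp600, Zfp975 and Zfp763 lie past the dotted lines with a p under 0.05.

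Some of the larger values come from genes with close copies. Of the 139 genes, 18 are also named by a probe set that lists several genes, and these include Zfp600, Zfp975, Zfp980, Zfp991 and Zfp950. The genes listed together are not always copies, since Zfp646 is listed with Tubb4b and Zfp821 with Ccdc7b. Hybridisation of a copy's RNA to the probes of a gene cannot be told apart from the gene's own signal. In the 7 genes with several distinct probe sets, the other sets often read differently. For Zfp706 the brighter set was higher by 0.09 ± 0.07 and the dimmer one lower by a log2 value of -0.06, with groups apart in both. Zfp738, with 3 sets, gave -0.06, -0.16 and 0.08, and Zfp985 gave -0.14, -0.07 and 0.02. In Zfp825 both sets were lower (-0.05 and -0.07), and in Zfp672 both were higher (0.05 and 0.18). The sets of Zfp664 gave 0.09 and -0.01, and the 3 sets of Zfp640 gave -0.11, -0.04 and -0.02.

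By chromosome, 33 of the 138 genes in the gene table lie on chromosome 7, 19 on chromosome 17, 14 on chromosome 8 and 9 each on chromosomes 4 and 11. With at most 3 other protein-coding genes between neighbours, 32 genes formed 5 clusters of at least 4. The largest, on chromosome 17 from Zfp948 to Zfp945, held 11 genes with a median difference of 0.01, from -0.23 in Zfp947 to 0.08 in Zfp943, with 8 of 11 above 0. Its most similar copies, Zfp758 and Zfp943, were printed above. Zfp758 stood at 8.64 and 8.55 in ethanol, against 8.45 and 8.61 in control, and Zfp943 at 9.38 and 9.22, against 9.28 and 9.17 in control. Groups overlapped in both, with differences of 0.07 ± 0.09 and 0.08 ± 0.09.

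The other chromosome 17 cluster, from Zfp871 to Zfp763, had 6 genes with a median of -0.04. Zfp763 stood furthest from 0 there, while its neighbour Zfp952 was at 0.02 ± 0.07 and Zfp799 was highest at 0.04 ± 0.07. Zfp871 (mean level 11.1) was brightest and Zfp811 (8.34) dimmest, and both were apart and lower by log2 values of -0.06 ± 0.07 and -0.08 ± 0.07. On chromosome 7, the 6 genes from Zfp771 to Zfp689 were above 0 in 5 cases, with a median of 0.04. Zfp747 and Zfp764, which share 87.6% of the stretch before the gene, stood highest at 0.13 ± 0.07 and 0.09 ± 0.07. Both had groups apart, Zfp764 at 8.30 and 8.32 in ethanol, against 8.23 and 8.21 in control. Zfp688 was the 1 gene below 0 (-0.01 ± 0.07), Zfp771 was brightest (8.99) and Zfp768, whose human counterpart binds MIR repeats, dimmest (8.05, difference 0.05 ± 0.07).

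The chromosome 4 cluster from Zfp991 to Zfp933 had a median of -0.09, with 4 of 5 genes below 0. Zfp991 was the exception described above, and Zfp985 was lowest. The gap rule left out Zfp600 (0.44) and Zfp980 (0.21), which precede Zfp991 in the same run of neighbouring genes. Zfp992, Zfp981, Zfp993 and Zfp978 lie between Zfp600 and Zfp991 but were not measured alone, so they counted as gap genes. Of the 9 genes of the range on chromosome 4, 4 were above 0 and 5 below, with a median of -0.08. Zfp982 varied widely within groups, at 7.92 and 7.36 in ethanol 1 and ethanol 2, against 7.63 and 7.84 in control 1 and control 2. Zfp933, the brightest of the cluster (9.28), stood at -0.13 ± 0.11, and this value turned to 0.01 without ethanol 1. On chromosome 8, the 4 genes from Zfp709 to Zfp961 had a median of 0.01, from -0.09 ± 0.10 in Zfp961 (10.2, the brightest) to 0.09 ± 0.07 in Zfp882. Zfp709 was dimmest there (7.99, difference 0.02 ± 0.10). Each of the 5 clusters held genes above and below 0.

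**Figure D4:**
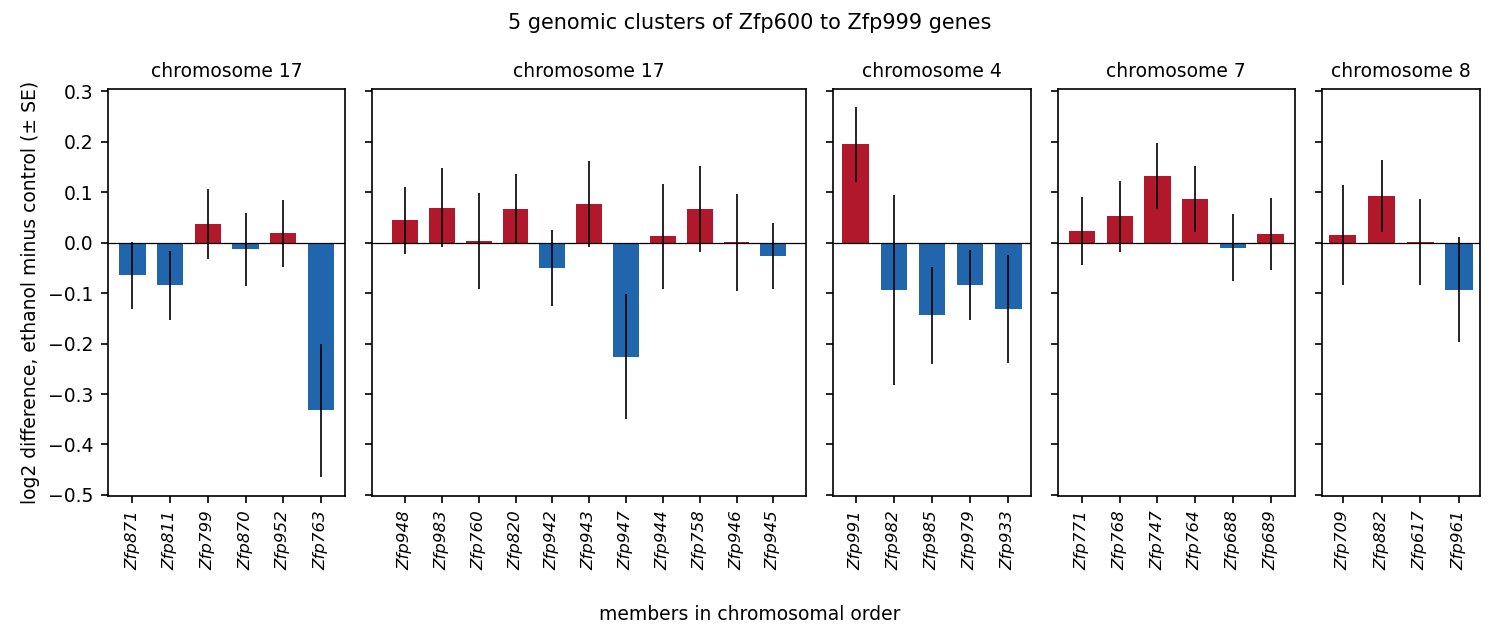
Log2 difference, ethanol minus control (y axis, bars from 0 with the SE of the moderated fit as black lines), for the 32 genes of the 5 clusters in chromosomal order (x axis), red above 0 and blue below. Zfp763, Zfp947 and Zfp991 lie furthest from 0, while most SE lines reach 0.

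Several members have known roles, and most of their differences were small. Zfp609, a partner of the cohesin loader Nipbl in mouse neural progenitors, stood at 10.4 and 10.5 in ethanol, against 10.5 and 10.5 in control (-0.03 ± 0.07). Its paralogue Zfp608 differed by -0.04 ± 0.07 at a mean level of 10.8. Zfp638, the nuclear protein NP220 that in human cells silences unintegrated retroviral DNA, differed by -0.03 ± 0.08. Zfp809, which brings Trim28 to murine leukaemia virus DNA in embryonic stem cells, stood at 9.39 and 9.51 in ethanol, against 9.48 and 9.37 in control (0.03 ± 0.08). The groups overlapped in these 4 genes. Zfp819, a KRAB protein that binds Trim28 in mouse embryonic stem cells, was dim (6.07) and differed by 0.04 ± 0.09.

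Among those with known partners in human cells, Zfp644, of the G9a and GLP methyltransferase complex, differed by -0.01 ± 0.07. Zfp827, whose counterpart recruits the NuRD complex, differed by -0.01 ± 0.07, and the repressor Zfp652 by -0.02 ± 0.07. Zfp703, a repressor of the NET family, was at 0.03 ± 0.07, and Zfp830, an early embryonic factor also called Omcg1, at -0.07 ± 0.08. Zfp704 was apart and lower by a log2 value of -0.08 ± 0.07. Zfp750, a regulator of epidermal differentiation, was close to dim (6.51) and apart at 0.08 ± 0.07. Zfp706, already named as the brightest, was also apart, by 0.09 ± 0.07 with the brighter probe set. Its dimmer set was apart in the other direction (-0.06 ± 0.07). Zfp932 is named only by probe sets of several genes and was not measured alone.

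RNA signals were also read for a list of 33 KRAB corepressor and heterochromatin genes, 31 of them with a probe set of their own. Of these, 0 passed the adjusted test (0.0% of all genes), 24 were below 0 and 7 above, and the median log2 difference was -0.05. Of all 19938 genes, 9134 were below 0 and 10804 above, with a median of 0.009. Of the 31, 1 gene, Cbx1 (HP1 beta), met the relaxed rule, where the share of all genes was 1.02%. Cbx1 stood at 9.30 and 9.58 in ethanol, against 9.83 and 9.67 in control (-0.31 ± 0.12, limma adjusted p = 0.980). The chromatin subunits Mta2 (-0.21 ± 0.10) and Chd4 (-0.19 ± 0.10) of NuRD were next. At the other end were the imprinting KRAB protein Zfp57 (0.09 ± 0.07), the DNA methyltransferase Dnmt3b (0.08 ± 0.08) and the histone deacetylase Hdac1 (0.05 ± 0.08). Trim28 stood at 10.84 and 10.95 in ethanol, against 10.98 and 10.91 in control (-0.05 ± 0.07), and Setdb1 at 10.5 and 10.6, against 10.6 and 10.7 (-0.09 ± 0.08). Control 1, the highest array in mitosis genes, was the highest in 21 of the 31, and in 5335 of all 19938 genes. The list's array medians of 10.6, 10.7, 10.8 and 10.7 (ethanol 1, ethanol 2, control 1, control 2) were lowest in ethanol 1. The part of dividing cells in these values was not tested.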

How the data were processed

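RNA of pooled whole fetal brains was measured on 4 one-colour Affymetrix arrays. The deposited values are on a log2 scale, as judged from their range. The sources used here do not give the log base, background correction, normalization or centring, and the submitters' processing notes name Partek 6.6. The array medians were 8.04, 8.01, 8.04 and 8.01 (ethanol 1, ethanol 2, control 1, control 2), and the number of arrays limits the precision.

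Of 35556 probe sets, 21789 have 1 gene symbol, 1621 several and 12146 none, and 21698 of the 21789 matched the gene table (GRCm38.p6) by Entrez identifier. That table served for names, neighbours and sequences, since no build is named for the array values. Groups were compared with limma 3.58.1 in R 4.3.3 (lmFit and eBayes, two-sided, 2 residual and 5.65 total degrees of freedom), and the procedure was tested on simulated data. Upstream stretches were aligned with Biopython 1.88 (local, match 1, mismatch -1, gap opening -2, extension -1). Genes named were the 10 of smallest p per direction, the extremes of level and range, the extremes of each cluster and members with known roles. The 3 most positive and negative genes of the corepressor list, Trim28 and Setdb1 were also named. Nothing in the labels says that equal replicate numbers pair arrays (deviations correlated at -0.484). Finger counts and KRAB boxes were not analysed here. The members and lists were chosen with earlier results of these data known.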

Additional observations from a re-analysis of the deposited data

How the results depend on the processing

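Over all genes, the number called after adjustment ranged from 0 to 4 with 1 array left out (4 without control 2) and was 0 under the other alternatives, and 0 of the 139 zinc finger genes passed under any. The relaxed rule, met by 3 genes, was met by 0 among brighter genes (1.34% of all genes there), where Zfp600 and Zfp975 do not enter. It was met by 1 when variance was not shared (0.186% of all genes) and by 0 when 1.5-fold was asked for (0.015%). With no fold minimum the count was 8 (2.94%). With 1 array left out it ran from 1 to 11. The 11 (7.91%) were without ethanol 2, where 6.04% of all genes met the rule, and 7 (5.04%) were without control 2, where 6.34% did. It was 1 without control 1 (1.18% of all genes) and 4 without ethanol 1 (0.712%). These fits leave a group with a single array. With every probe set on its own, 2 of 150 met the rule (1.33%, against 2.79% of all probe sets). An unadjusted p under 0.05 alone was reached there by 1.33%, against 3.95%. Among brighter genes it was reached by 4.26% (4.59% of all genes there), and with the replicate block by 1.44% (1.34%). In the other fits on all 4 arrays the members' share was the higher one, from 3.6% (3.11%, variance trend) to 10.1% (7.34%, crossed block). Zfp600 met the rule under every alternative in which it was tested, except the fold of 1.5. Genes with groups apart went from 50 to 32 of 94 among brighter genes (34.0%, against 34.8% of all genes). With 1 array left out they numbered between 85 and 108 (61.2% and 77.7%, against 58.4% and 74.4% of all genes), since fewer arrays are compared. The median difference turned to 0.011 after repeated quantile normalization, and stayed between -0.015 and -0.0001 with 1 array left out. Zfp933 ranged from -0.275 to 0.0122 (without ethanol 1) with 1 array left out. With the replicate block 0 genes passed and 2 met the relaxed rule (Zfp600 and Zfp975), as did 0.983% of all genes. A crossed replicate block, chosen after seeing the data, gave 0 and 3, with 1.87% of all genes.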

Other observations

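Probe sets that list several genes, outside the comparisons above, give a pooled signal in which the listed genes cannot be separated. There are 34 such probe sets that name at least 1 gene of the range Zfp600 to Zfp999. A chromosome 2 family with 17 symbols, Zfp970, Zfp971 and Zfp931 among them, read 12.7 and 12.6 in ethanol, against 12.6 and 12.7 in control, a log2 difference of 0.01 ± 0.07. A probe set names Zfp932, a silencer of endogenous retroviruses in mouse, with Gm15446 and read 11.4 and 11.3 in ethanol, against 11.3 and 11.4 in control (-0.02 ± 0.09). The second probe set of this pair was at 0.03 ± 0.10. The other probe sets that name Zfp932, each with 4 further genes, were at -0.06 ± 0.07 and -0.04 ± 0.07 with groups apart. For Zfp808, Zfp934 and Gm5141 the values were 9.91 and 10.0 in ethanol, against 10.1 and 9.93 in control (-0.04 ± 0.10). The widest of the 34 differences was that of the probe set of Zfp600 and its 5 companions, given above.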
